A study of Mus musculus with 10 samples.

Results

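The T cell and NK cell genes are 39 mouse genes picked by name for the T cell receptor complex, T cell subsets, cytotoxic killing and NK cells, with the checkpoint genes left out. All 39 were among the 55359 genes of the deposited table, and 38 had a mean normalized count of at least 1 over the 10 tumors and were tested. Ncr1 lay under that limit. RNA was sequenced from tumors of KPC K8484 cells, a single luciferase-expressing murine pancreatic cancer line. The tumors were grown in the pancreas of immunocompetent C57BL/6 mice (C57BL/6 J in the methods) implanted at 10 weeks of age. The 5 CTRL tumors came from normoglycemic mice that drank regular water, and the 5 D30 tumors came from mice that drank 30% dextrose water for 14 days to induce hyperglycemia, so the comparison asks how the T and NK cell transcripts of the tumor differed with a high glucose supply. The labels title the tumors PDX, although they name KPC K8484 cells as the source. Tumors are called by the letter and number of their column (N for CTRL, T for D30), since no column could be matched to a single animal.

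T cells read antigen through a receptor of 2 variable chains held at the surface by the Cd3 proteins, with Cd4 or Cd8 as co-receptor, and pass the signal on through the kinases Lck and Zap70 and the adaptor Lat. NK cells lack this receptor and weigh activating against inhibitory receptors such as Klrk1 (NKG2D) and the Ly49 family. Both kill with perforin (Prf1) and granzymes, and both depend on cytokines read through the common gamma chain, Il2rg. Pancreatic tumors are known for holding few T cells. In bulk tumor RNA, fewer cells of a type and less RNA per cell cannot be told apart.

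Reads per tumor ranged from 29192261 to 42122304, and the tumors held between 20482 and 25912 genes with at least 1 read. A pair of D30 tumors stood apart. T5 had the fewest genes with a read, and T4 had 841 reads of 4 Y-linked genes where the other 9 tumors had 0. The labels give no sex for single animals, while the study's methods state that both sexes were used in equal numbers. Exocrine pancreas also differed between tumors, since the summed normalized count of 8 acinar genes was 27624 in N2, 2866 in N4, 58309 in N6 and 5057 in T4, and 19.5 to 91.2 in the other tumors. The part of these differences in the results below was not tested, and the results are also given without T4 and T5.

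Most members were rare transcripts. On the RPKM scale, which divides reads by exon length and library depth, the CTRL medians ran from 0.0184 for Ncr1 to 11.0 for Tcf7, and of the 39 only Tcf7, Trac, Il2rg, Trbc1, Trbc2 and Nkg7 had a CTRL median above 1. The 6 genes listed as T cell markers (Cd3d, Cd3e, Cd3g, Cd247, Lck and Cd2) were read in both groups. Their summed normalized count was 144 to 324 in CTRL tumors against 76.7 to 198 in D30 tumors. Lck alone had 46.3 to 97.8 in CTRL and 25.4 to 90.5 in D30 tumors, so this sum does not read the Cd3 genes alone. The 4 genes listed as NK cell markers (Ncr1, Klrb1c, Klrk1 and Nkg7) summed to 45.5 to 116 in CTRL tumors against 0 to 77.5 in D30 tumors. T cells also transcribe Klrk1 and Nkg7, and Nkg7 alone had 27.5 to 76.8 in CTRL tumors, so the sum does not read NK cells alone. None of these genes was at 0 in all tumors, although all 4 listed for NK cells were at 0 in T5. The thymocyte genes Rag1, Rag2, Dntt and Ptcra summed to at most 6.31.

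Most members lay lower in D30 tumors, while few passed the test one by one. The log2 fold change was below 0 for 35 of the 38 tested members, against 54.7% of all 24560 tested genes, and Il7r, Gata3 and Ifng were the exceptions. The median log2 fold change of the members was -1.04, that of all tested genes -0.06. Among genes with a mean normalized count under 100, the median was -1.14 for 34 members and -0.16 for 12345 tested genes, and 94.1% of these members and 57.7% of these genes lay below 0. The members are not independent of each other, since many are transcribed in the same cells.

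At an adjusted p under 0.05, limma called 1 member higher (Il7r), where 1.4% of all tested genes were called higher, and 1 member lower (Lef1), where 1.36% were. At an unadjusted p under 0.05, 12 members lay lower and 2 higher, beside 9.54% and 7.79% of all tested genes. The groups did not overlap for 4 members that lay lower (Cd4, Zap70, Lef1 and Ikzf2), beside 3.32% of all tested genes, and for 1 that lay higher (Il7r), beside 2.87%. On recovered reads, edgeR tested 31 members and called Il7r and Lef1, with 4.13% of 17127 genes called in either direction. DESeq2 called 6 members, with 8.52% of 21799 genes called, and the additional 4 were Gata3, Cd4, Ikzf2 and Zap70.

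**Figure D1:**
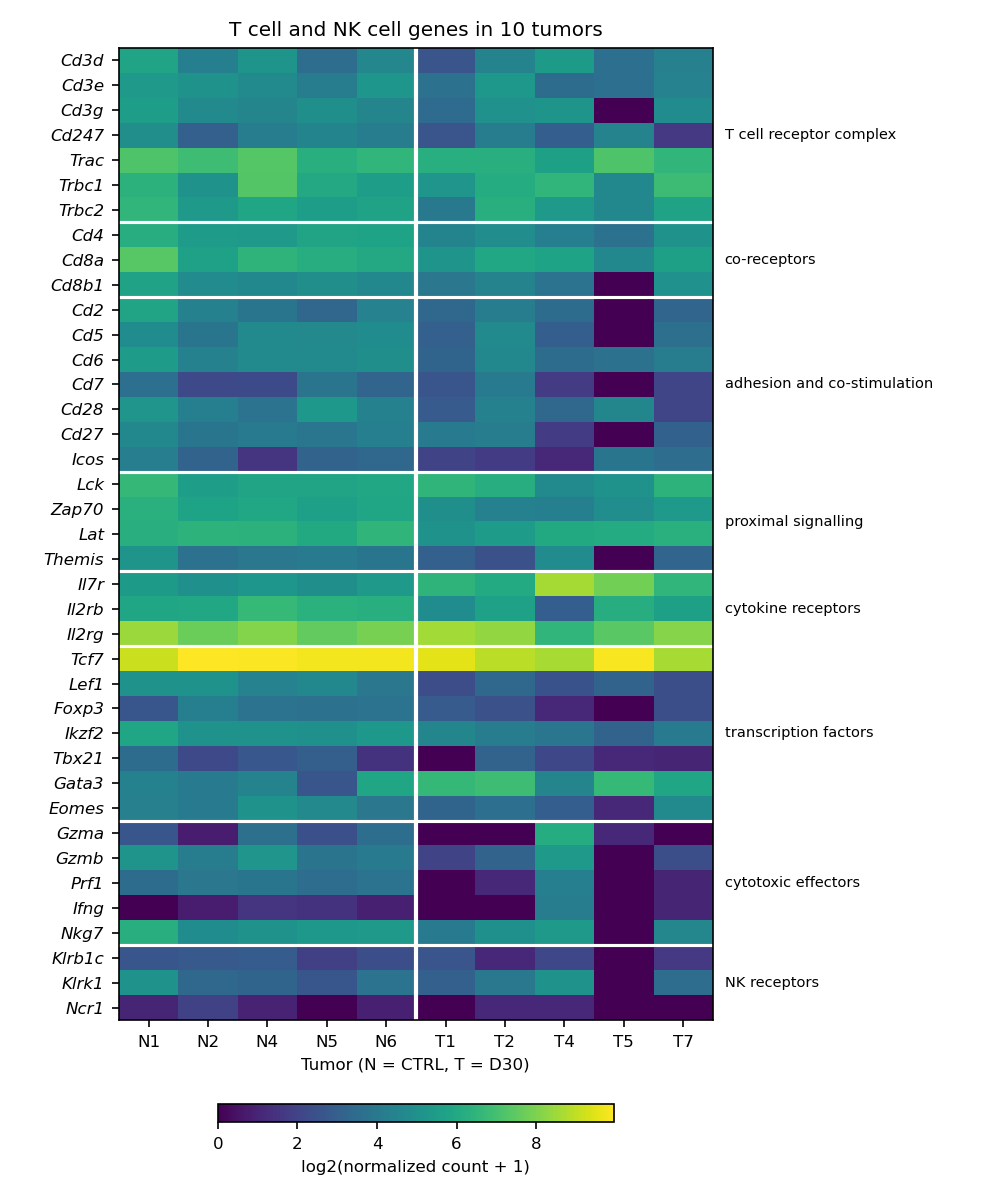
Heat map of log2(normalized count + 1) of the 39 members (rows, grouped by role) in the 10 tumors (columns, CTRL left and D30 right of the white line). T5 had no read of 15 members, and 19 members had their highest value in N1.

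Single tumors set much of the spread. N1 held the highest value of 19 members, and T5 held the lowest value of 17 members and had no read of 15. T1 lacked reads of 5 members, T2 and T7 of 2 each, N1 and N5 of 1 each, and the other 4 tumors of none. A count of 0 allows up to 3 reads in that library, which covers counting error only. Reads of all members together made up 67.0 to 83.3 RPM (reads scaled to library depth) in CTRL tumors, and 39.8 to 55.4 RPM in D30 tumors. Tcf7 alone supplied 541 to 1369 of the 2360 to 3021 member reads in CTRL tumors. In D30 tumors it supplied 349 to 804 of 1476 to 1800. In N2, Tcf7 supplied 1369 of 3021 member reads in a library of 42122304 reads, and in T2 421 of 1616 in 29192261. Scaled to depth, the other members together were higher in T2 than in N2, so without Tcf7 the groups overlapped. The sums with Tcf7 therefore do not describe the rarer members. Without T4 and T5, 33 of 37 tested members lay below 0, with a median log2 fold change of -0.76.

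Il7r, the receptor chain for interleukin 7 on resting and memory T cells and on innate lymphoid cells, rose in D30 tumors. Its normalized count was 42.1, 31.1, 36.5, 30.1 and 40.2 in N1, N2, N4, N5 and N6. It was 88.4, 67.6, 387, 228 and 92.7 in T1, T2, T4, T5 and T7. All D30 tumors lay above all CTRL tumors, and T4 and T5 were the highest. This was a log2 fold change of 1.92 with a standard error of 0.45 (limma, adjusted p = 0.0406), and it was 1.18 without T4 and T5 (adjusted p = 0.0186). The call was lost when N1, N2, N4, N5, N6, T5 or T7 was left out, with an adjusted p of up to 0.117. The gene lies on chromosome 15, where no other annotated gene overlaps it. T4, with the highest Il7r, had the lowest normalized count of Cd3e of the 10 tumors (10.4). T5, the next highest, had no read of Cd3g or Cd2 but a Trac of 148. Which cells transcribed Il7r was not tested.

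Lef1, a partner of Tcf7 in the Wnt-responsive transcription factor family and a gene of naive T cells, fell. Its normalized count was 33.7, 33.3, 20.1, 23.9 and 14.5 in N1, N2, N4, N5 and N6, and 4.11, 9.16, 4.63, 8.01 and 4.26 in T1, T2, T4, T5 and T7. No D30 tumor reached the lowest CTRL tumor. The log2 fold change was -1.89 with a standard error of 0.43 (limma, adjusted p = 0.0335), and it was -1.94 without T4 and T5 (adjusted p = 0.0142). The call was lost when N1, N2, N4, N5, N6, T1 or T7 was left out, with an adjusted p of up to 0.123. Lef1 is also transcribed outside lymphocytes, and Gm42449 and Gm43352 overlap it on chromosome 3.

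The 250 bases before the annotated start of the 2 called members and of Cd3e, a defining gene of T cells, are shown so that they can be read beside these opposite changes. Sequences are from RefSeq (GRCm38.p6), 5′ to 3′ on the strand of the gene, with matches to 1 of 4 motifs in capitals.
Il7r, chr15:9529877-9530126, minus strand: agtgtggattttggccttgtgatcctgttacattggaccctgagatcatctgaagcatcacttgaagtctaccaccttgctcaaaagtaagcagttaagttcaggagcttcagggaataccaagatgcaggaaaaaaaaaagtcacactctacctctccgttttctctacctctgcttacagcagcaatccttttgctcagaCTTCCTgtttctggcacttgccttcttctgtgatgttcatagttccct
Lef1, chr3:131110047-131110296, plus strand, first of 4 starts: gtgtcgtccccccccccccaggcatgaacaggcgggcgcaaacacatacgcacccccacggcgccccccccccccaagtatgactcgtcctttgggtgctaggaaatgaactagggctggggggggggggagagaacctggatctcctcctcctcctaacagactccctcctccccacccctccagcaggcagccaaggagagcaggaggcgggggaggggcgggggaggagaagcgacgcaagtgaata
Cd3e, chr9:45009612-45009861, minus strand: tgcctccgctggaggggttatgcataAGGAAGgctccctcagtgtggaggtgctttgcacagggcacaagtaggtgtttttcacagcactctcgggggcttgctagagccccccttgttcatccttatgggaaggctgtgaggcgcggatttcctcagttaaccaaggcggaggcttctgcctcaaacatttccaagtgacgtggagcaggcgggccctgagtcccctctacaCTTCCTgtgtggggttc
Both strands were searched for 4 motifs of 6 letters. AGGAAG is bound by Ets factors, and TGTGGT is known as a core site of Runx factors. CTTTGA is the core of the TCF/LEF site, and AGATAA that of the GATA site. The Il7r window held 1 Ets match on the reverse strand, 48 bases before the start, and the Cd3e window held 2, at 224 and 17 bases. None of the 4 motifs was in the window of the first Lef1 start. With all 4 of its starts together, Lef1 held the Ets and the TCF/LEF letters, and those other windows are not printed. Of the 39 members, 27 had an entry, and their windows, all starts of a gene together, held the Ets letters for 15, Runx for 10, TCF/LEF for 3 and GATA for 2 genes. Of all 27025 genes with an entry, 32.3%, 15.9%, 15.8% and 11.4% held them. A match of letters is a description and not a binding site.

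No gene of the T cell receptor complex passed the limma test, none had an unadjusted p under 0.05, and edgeR and DESeq2 called none. All 7 had a log2 fold change below 0, from -1.17 for Cd3g to -0.20 for Trbc1, with a median of -0.60. The value of Cd3g rested on T5, which had no read of it, and was -0.24 without that tumor. Cd3e, a signalling chain of the complex, had a normalized count of 40.0, 33.3, 25.6, 17.7 and 36.8 in CTRL tumors (N1, N2, N4, N5 and N6). In D30 tumors it was 12.3, 38.9, 10.4, 11.4 and 20.2 (T1, T2, T4, T5 and T7). T2 and T7 lay within the range of the CTRL tumors, and so the groups overlapped (log2 fold change -0.81, standard error 0.45, adjusted p = 0.384 with limma). Cd3d ranged from 10.6 to 54.7 in CTRL against 5.14 to 41.6 in D30 tumors, and Cd247, the zeta chain, from 7.23 to 29.5 and from 2.13 to 20.6. Trac, the constant region of the alpha chain, was read at 75.2 to 158 in CTRL against 49.7 to 148 in D30 tumors. T5 was the D30 tumor with 148, and it had no read of Cd3g. Trbc1 and Trbc2, the near-identical constant regions of the beta chain, whose reads may have been split between them, lay at 34.0 to 156 and 40.5 to 93.6 in CTRL tumors and at 24.0 to 113 and 15.4 to 76.7 in D30 tumors. The sign of Trbc1 was positive without N4 (0.10) and without T5 (0.11).

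Cd4, the co-receptor of helper and regulatory T cells that macrophages and dendritic cells can also transcribe, was lower in every D30 tumor. Cd4 was read at a normalized count of 72.6, 44.8, 41.1, 54.9 and 53.9 in N1, N2, N4, N5 and N6. It was 21.6, 28.6, 18.5, 12.6 and 33.0 in T1, T2, T4, T5 and T7. The groups did not overlap, although the log2 fold change of -1.23 with a standard error of 0.37 missed the threshold of limma (adjusted p = 0.0978), while DESeq2 called it (adjusted p = 0.0098). Cd8a and Cd8b1, which form the co-receptor of cytotoxic T cells, ranged from 50.6 to 165 and from 23.8 to 51.5 in CTRL tumors, and from 24.0 to 59.6 and from 0 to 32.0 in D30 tumors. Their log2 fold changes were -0.92 (adjusted p = 0.246) and -1.50 (adjusted p = 0.356) with limma. The value of 0 for Cd8b1 was that of T5, and without T5 the log2 fold change of Cd8b1 was -0.64.

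The 7 adhesion and co-stimulation genes all had a log2 fold change below 0, with a median of -1.16. None passed an adjusted p under 0.05 with limma, edgeR or DESeq2, and 2 (Cd5 and Cd6) had an unadjusted p under 0.05 with limma. Cd5, an inhibitor of receptor signalling, had a log2 fold change of -1.70, and Cd6, its neighbour and relative, one of -1.005. The value was -1.16 for Cd28, the main co-stimulatory receptor, and -1.55 for Cd27, a TNF receptor family member of memory T cells. Cd2 had -1.49, Cd7 -0.93 and Icos, a co-stimulator of helper T cells, -0.63. T5 had no read of Cd2, Cd5, Cd7 or Cd27, yet had a normalized count of 22.9 for Cd28 and 13.7 for Icos, the highest of the D30 tumors for both. Without T5 the log2 fold changes of Cd2, Cd5, Cd7 and Cd27 were less far below 0, at -0.78, -0.97, -0.41 and -0.90. That of Icos was -0.35 without N1, -0.30 without T4, -1.03 without N4 and -0.99 without T5.

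Among the proximal signalling genes, Zap70, the kinase that binds the phosphorylated receptor, was lower in every D30 tumor. Zap70 was read at a normalized count of 78.9, 53.5, 61.2, 47.8 and 56.5 in N1, N2, N4, N5 and N6. It was 29.8, 19.5, 18.5, 28.6 and 40.5 in T1, T2, T4, T5 and T7. The groups did not overlap, and the log2 fold change was -1.13 with a standard error of 0.34 (adjusted p = 0.105 with limma, 0.0114 with DESeq2). Lck, the kinase upstream of it, ranged from 46.3 to 97.8 in CTRL against 25.4 to 90.5 in D30 tumors. Its log2 fold change of -0.17 (limma, adjusted p = 0.879) turned to 0.42 without T4 and T5. Lat had -0.52 (adjusted p = 0.435) and Themis, a regulator of receptor signalling in developing T cells, -1.47 (adjusted p = 0.331) with limma. Without T5 the log2 fold change of Themis was -0.79, and without T1 that of Lat was -0.33.

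The other cytokine receptor chains had log2 fold changes below 0 and did not pass the test. Il2rb, the beta chain for interleukins 2 and 15, ranged from 58.9 to 99.6 in CTRL tumors against 6.94 to 72.1 in D30 tumors, with the lowest value in T4 (log2 fold change -1.15, limma, adjusted p = 0.284, and -0.63 without T4). Il2rg, the common gamma chain that Il7r also pairs with, lay at 187 to 351 in CTRL against 92.5 to 380 in D30 tumors (log2 fold change -0.15, limma, adjusted p = 0.881). T4 was thus the tumor with the highest Il7r and the lowest Il2rb and Il2rg. Without T4 and T5 the log2 fold change of Il2rg was 0.41.

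**Figure D2:**
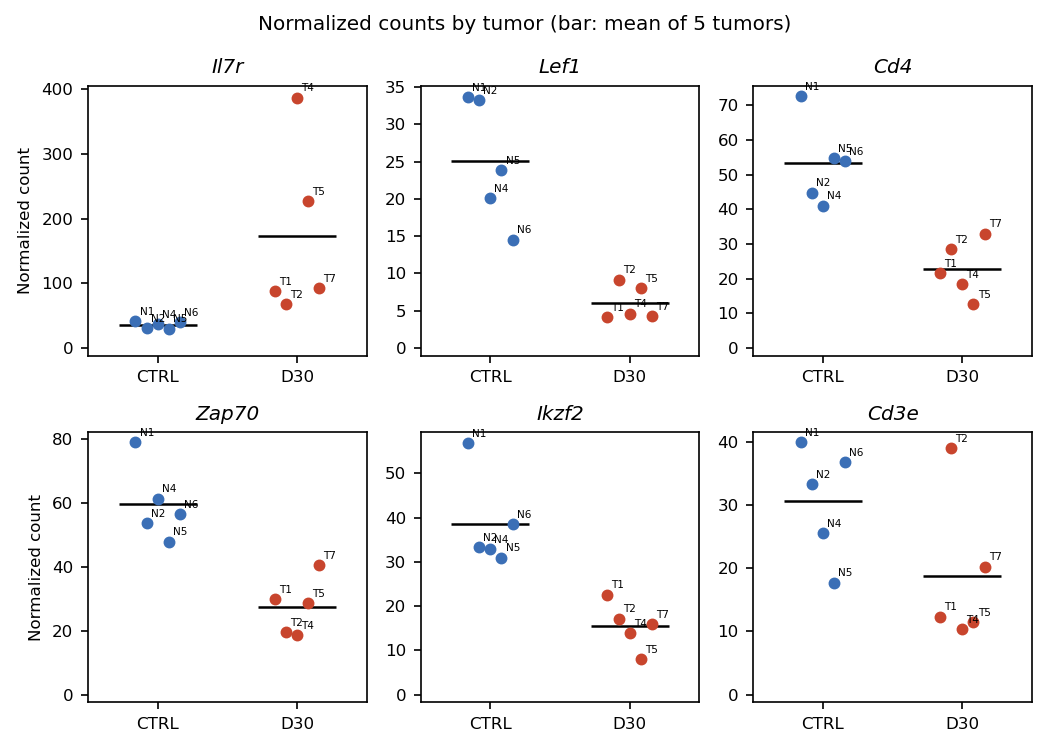
Normalized counts of 6 members in each tumor (points, labelled by tumor), with the mean of 5 tumors as a bar. CTRL and D30 tumors did not overlap for Il7r, Lef1, Cd4, Zap70 and Ikzf2, while for Cd3e T2 and T7 lay within the range of the CTRL tumors.

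Of the transcription factors, Ikzf2 (Helios), a marker of many regulatory T cells, was lower in every D30 tumor. Its normalized count was 56.8, 33.3, 32.9, 31.0 and 38.5 in N1, N2, N4, N5 and N6. It was 22.6, 17.2, 13.9, 8.01 and 15.98 in T1, T2, T4, T5 and T7. Between groups the log2 fold change was -1.29 with a standard error of 0.39 (adjusted p = 0.102 with limma, 0.0131 with DESeq2). Foxp3, which defines regulatory T cells, was read at 5.26, 18.8, 12.8, 12.4 and 12.8 in N1, N2, N4, N5 and N6 and at 6.17, 4.58, 1.16, 0 and 4.26 in T1, T2, T4, T5 and T7. Only T1 exceeded the lowest CTRL tumor, N1, and the log2 fold change was -1.89 with a standard error of 0.61 (limma, adjusted p = 0.124). Ccdc22 and Ppp1r3f overlap Foxp3 on the opposite strand, and although the libraries were strand-specific, the sources used here do not say whether reads were counted by strand.

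Gata3, which directs type 2 helper cells and innate lymphoid cells and is also made in epithelium, lay higher in most D30 tumors. Its normalized count was 19.99, 16.6, 21.01, 5.31 and 58.2 in N1, N2, N4, N5 and N6. It was 97.7, 115, 21.98, 101 and 58.6 in T1, T2, T4, T5 and T7. T4 lay within the range of the CTRL tumors, and T7 was level with N6. The log2 fold change was 1.81 with a standard error of 0.60 (adjusted p = 0.14 with limma, 0.0345 with DESeq2), and without T4 it was 2.20 (limma, adjusted p = 0.0292). Tcf7, the most abundant member, ranged from 569 to 990 in CTRL against 399 to 920 in D30 tumors (log2 fold change -0.59, limma, adjusted p = 0.279). Its CTRL median was 11.0 RPKM against 0.268 RPKM for Cd3e. Among CTRL tumors Tcf7 was lowest in N1, the tumor with the highest value of 19 members. Which cells transcribed Tcf7 was not tested. Tbx21 and Eomes, the T-box factors of cytotoxic and NK cells, had log2 fold changes of -1.08 (adjusted p = 0.421) and -1.30 (adjusted p = 0.291) with limma. That of Tbx21 was -0.71 without T1, and that of Eomes -0.79 without T5.

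Prf1 and Gzmb were low in 4 D30 tumors and high in T4. Prf1, the pore-forming protein of cytotoxic granules, had a normalized count of 10.5, 14.5, 13.7, 10.6 and 12.8 in N1, N2, N4, N5 and N6. It was 0, 1.15, 18.5, 0 and 1.07 in T1, T2, T4, T5 and T7. T4 lay above every CTRL tumor and the other D30 tumors below all of them (log2 fold change -2.45, standard error 0.73, adjusted p = 0.101 with limma). Gzmb, a granzyme that cleaves caspases, was read at 34.7, 17.3, 35.6, 13.3 and 16.3 in N1, N2, N4, N5 and N6. In T1, T2, T4, T5 and T7 it was 3.08, 8.02, 39.3, 0 and 4.26, the same arrangement (log2 fold change -1.91, standard error 0.80, adjusted p = 0.239 with limma). Gzma was read at 5.26, 0.723, 11.9, 4.43 and 11.1 in CTRL tumors, and it was 0 in T1, T2 and T7, 1.14 in T5 and 70.6 in T4. Ifng, the interferon of activated T and NK cells, did not exceed 1.83 in CTRL tumors and was 17.3 in T4, 1.07 in T7 and 0 in the other 3 D30 tumors.

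The results for Prf1, Gzmb, Gzma and Ifng turned on T4. The sum of Gzma, Gzmb, Prf1 and Ifng was 30.1 to 63.0 in CTRL tumors, 1.14 to 9.16 in 4 D30 tumors and 146 in T4. Without T4, Prf1 (log2 fold change -3.20, adjusted p = 0.00267) and Gzmb (-2.60, adjusted p = 0.0302) passed the test of limma. Without T5 the log2 fold change of Gzmb was -1.27. Without T4 and T5, Gzma passed as well (-2.63, adjusted p = 0.0284). This exclusion was chosen after the values were seen. With all tumors the log2 fold change of Gzma was -1.18 (limma, adjusted p = 0.632), and DESeq2, which fits mean counts, gave it the opposite sign. Nkg7, a granule membrane protein of T and NK cells, ranged from 27.5 to 76.8 in CTRL tumors against 0 to 39.3 in D30 tumors (log2 fold change -1.56, limma, adjusted p = 0.376). It did not follow the arrangement of Prf1 and Gzmb, since T2 (30.9) and T4 (39.3) lay within the CTRL range, and its log2 fold change was -0.60 without T5, which had no read.

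**Figure D3:**
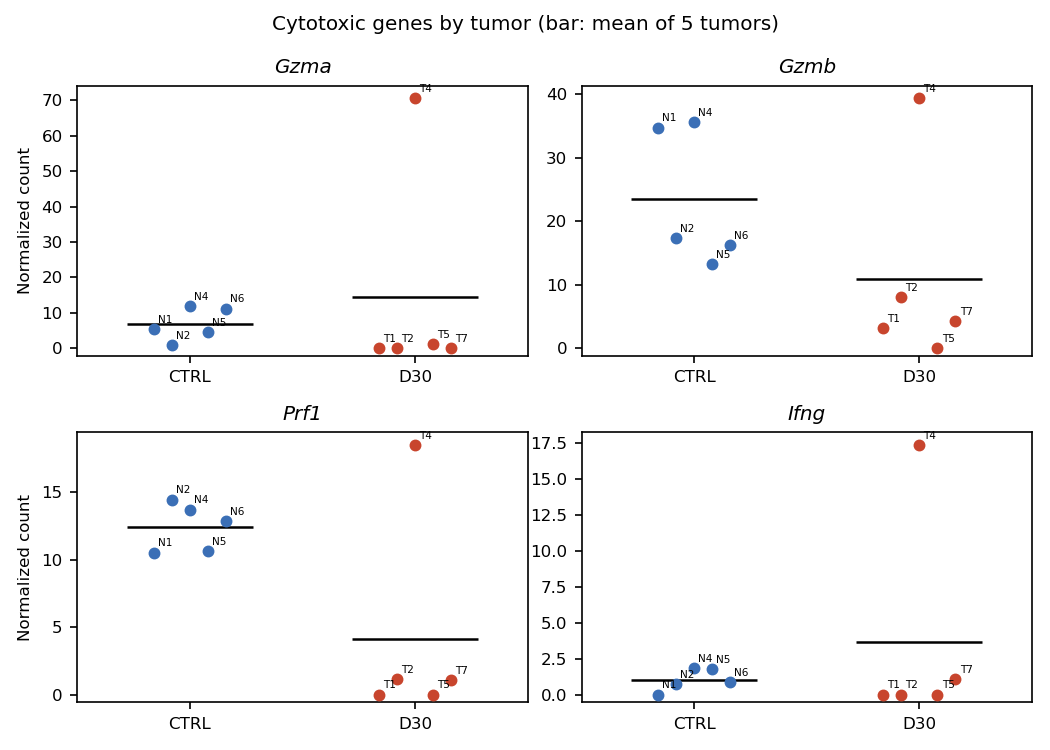
Normalized counts of Gzma, Gzmb, Prf1 and Ifng in each tumor (points, labelled by tumor), with the mean of 5 tumors as a bar. T4 had the highest value of all 10 tumors for each gene, while the other 4 D30 tumors lay below all CTRL tumors for Gzmb and Prf1.

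The NK receptors were near the limit of detection. Klrb1c (NK1.1) lay at 2.66 to 6.40 in CTRL against 0 to 5.14 in D30 tumors (log2 fold change -1.01, limma, adjusted p = 0.378, and -0.63 without T5). Klrk1, which T cells also carry, lay at 5.31 to 32.6 in CTRL against 0 to 33.5 in D30 tumors (log2 fold change -0.48, limma, adjusted p = 0.813). Ncr1 (NKp46) did not exceed 2.89 in any tumor, and no difference was detectable at this depth.

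**Figure D4:**
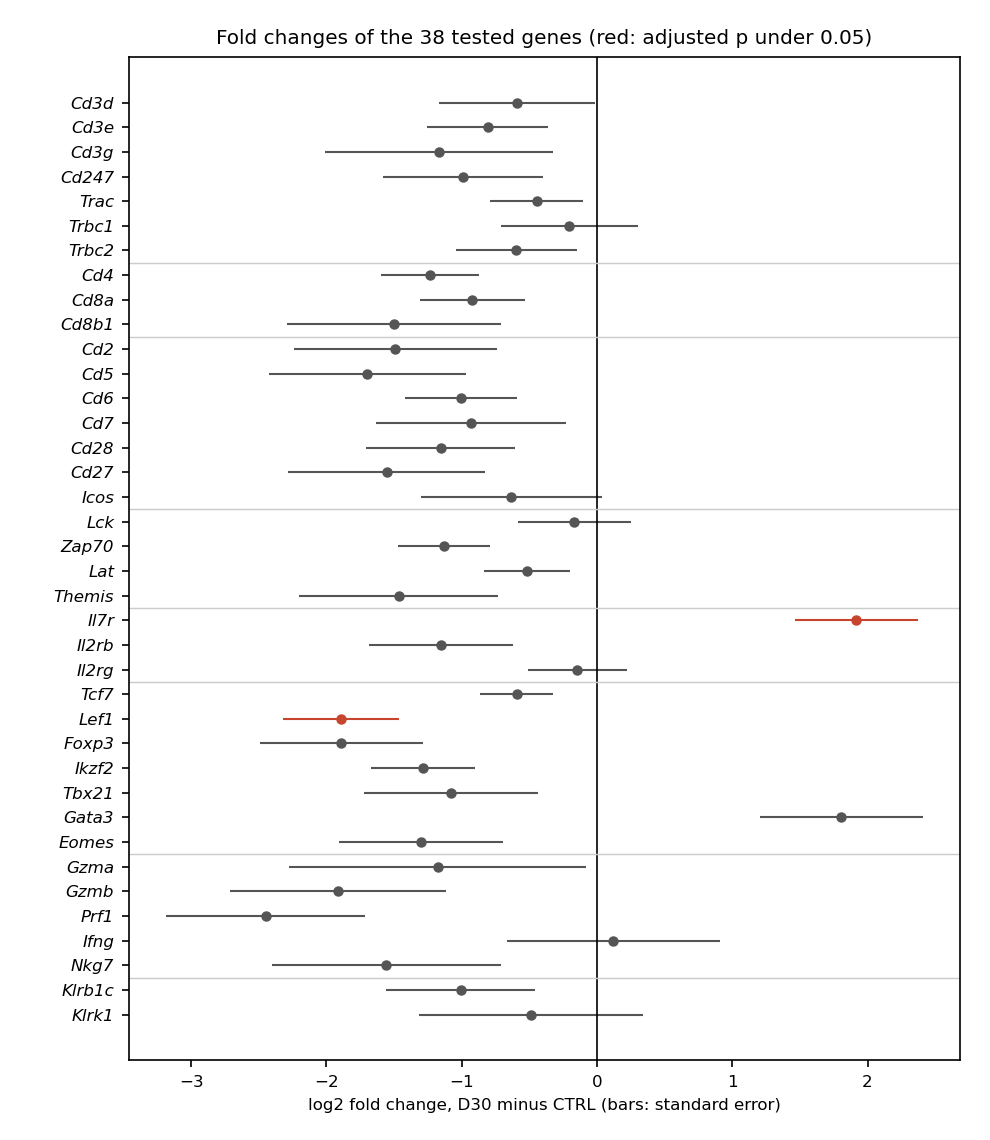
Log2 fold change of D30 against CTRL tumors for the 38 tested members in the order of their roles (points), with the standard error as a bar. Il7r (1.92) and Lef1 (-1.89), in red, passed an adjusted p under 0.05, and 35 points lay left of 0.

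The log2 ratios of 7 gene pairs did not separate the groups. A common change of T and NK cell RNA cancels where both genes are members. It does not cancel in Cd3e to Ptprc, since Ptprc is not a member. With 1 added to each count, it cancels only in part where counts are near 0, as for Ncr1 and Gzma. The log2 ratio of Cd8a to Cd4 was 0.61 ± 0.48 (SD, n = 5) in CTRL and 0.92 ± 0.36 in D30 tumors (two-sided exact permutation test, p = 0.278, adjusted p = 0.514). Foxp3 to Cd4 was -2.09 ± 0.89 in CTRL and -2.74 ± 0.80 in D30 tumors (exact permutation test, adjusted p = 0.514). Cd3e to Ptprc, the antigen of all leukocytes, was -4.79 ± 0.43 and -5.48 ± 1.07 (exact permutation test, adjusted p = 0.514). For the 7 ratios tested, which also included Cd8b1 to Cd8a and Ncr1, Gzma and Gzmb to Cd3e, adjusted p ranged from 0.514 to 0.865. With 5 tumors a group and ratios that spread this widely, these values do not show that the ratios were equal.

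The V segments of the T cell receptor loci gave a readout that the member list did not use. The list does hold Trac, Trbc1 and Trbc2, constant regions of these loci, so the readout is not independent of the members. Each T cell clone joins 1 of many V segments to its receptor chains, so the number of V genes with a read describes how many different segments were caught. Of 176 annotated V genes, 15, 18, 14, 20 and 21 had at least 1 read in N1, N2, N4, N5 and N6, and 12, 13, 11, 3 and 9 in T1, T2, T4, T5 and T7. Every D30 tumor lay below every CTRL tumor. The mean was 17.6 ± 3.05 (SD, n = 5) in CTRL and 9.60 ± 3.97 in D30 tumors, a difference of -8. The exact permutation test gave a two-sided p of 0.00794, the lowest that 5 tumors a group can reach, and an adjusted p of 0.0159 over 2 measures. The difference was -7.13 with reads scaled to the shallowest tumor, -4 for V genes with at least 4 reads, -8.35 without T4 and -6.35 without T5. The number of all genes with a read was also lower in D30 tumors (20482 to 24716, against 24200 to 25912 in CTRL tumors). Per 1000 genes with a read, the V genes numbered 0.575 to 0.831 in CTRL against 0.146 to 0.544 in D30 tumors.

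No difference was found in the total reads of the V genes. They made up 3.48 ± 0.472 (SD, n = 5) RPM in CTRL and 3.47 ± 1.81 RPM in D30 tumors (two-sided exact permutation test, p = 1). A single gene, Trdv4, held much of them, with 38 to 99 reads in CTRL against 42 to 196 in D30 tumors. Trdv4 was named after its values were seen, and so was the count without it, which was 48 to 77 reads in CTRL against 16 to 27 in D30 tumors. The groups did not overlap for the beta chain either, with 34 to 61 Trbv reads in CTRL against 0 to 19 in D30 tumors. T5 had no Trbv read and no read of a J segment of the alpha or beta chain, although its Trac value was among the highest. It had 16 Trav reads, from 2 Trav genes, where CTRL tumors had 5 to 13 Trav reads. T5 also had the highest value of Trdc, the delta chain constant region, at 76.7 where CTRL tumors lay at 2.66 to 10.8.

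**Figure D5:**
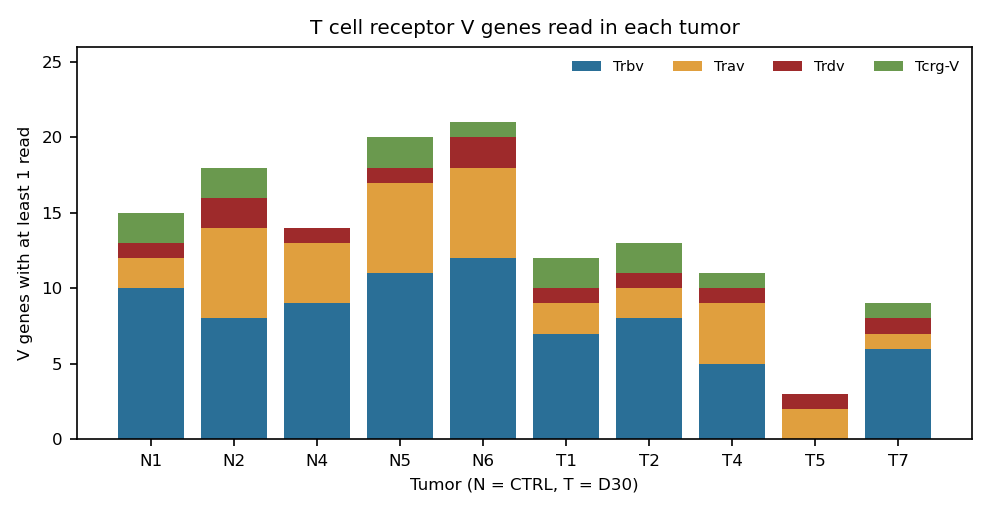
Number of T cell receptor V genes with at least 1 read in each tumor, stacked by locus (beta Trbv, alpha Trav, delta Trdv and gamma Tcrg-V). CTRL tumors (N) had 14 to 21 V genes and D30 tumors (T) 3 to 13, with no Trbv gene in T5.

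Other genes of the T and NK cell pathways were read from 8 lists of 136 symbols, of which 129 were in the table and 122 were tested. At an adjusted p under 0.05, limma called 2 of them higher and 2 lower, beside 1.4% and 1.36% of all tested genes. The log2 fold change was below 0 for 76 of the 122, beside 54.7% of all tested genes, and the median was -0.22. The shares called lay near those of all genes. Of the 22 T cell receptor signalling genes, 0 passed the limma test, 6 had an unadjusted p under 0.05, all lower, and the median was -0.57. DESeq2 called 1 of these 22, Sit1, which lay at 0.914 to 10.5 in CTRL against 0 to 2.13 in D30 tumors. The 9 tested genes of gamma-delta and innate-like T cells leaned the other way, with 7 above 0 and a median of 0.63.

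Among 16 cytotoxic granule genes, Gzmm, a granzyme of NK and innate-like T cells, rose, while Gzma and Gzmb had log2 fold changes below 0 that did not pass the test. Its normalized count was 16.8, 10.1, 12.8, 13.3 and 10.3 in N1, N2, N4, N5 and N6 and 31.9, 44.7, 44.0, 36.6 and 64.98 in T1, T2, T4, T5 and T7. The groups did not overlap, and T4 did not stand apart (log2 fold change 1.71, standard error 0.36, limma, adjusted p = 0.0233). T5, with 36.6 for Gzmm, had no read of Nkg7, Prf1 or Gzmb, and which cells transcribed Gzmm was not tested. At an unadjusted p under 0.05, 7 genes of this list lay lower (Gzmc, Gzmd, Gzmf, Gzmg, Gzmk, Serpinb9 and Tnfsf10) and 2 higher (Gzmm and Srgn), and DESeq2 called the 2 that lay higher. Srgn, the proteoglycan of granules, was read at 548 to 1341 in CTRL against 832 to 13646 in D30 tumors. Among 14 tested genes of the common gamma chain cytokines, Il2ra, the alpha chain of the interleukin 2 receptor, fell (log2 fold change -5.51, limma, adjusted p = 0.00338), while Il2rb and Il2rg did not pass the test. The normalized count of Il2ra was 159 to 212 in CTRL against 0 to 27.5 in D30 tumors. In CTRL tumors it lay above that of Cd3e (17.7 to 40.0), and which cells transcribed Il2ra was not tested. DESeq2 also called Il21r, the receptor of interleukin 21, lower, with 112 to 235 in CTRL against 49.2 to 105 in D30 tumors (log2 fold change -0.97, adjusted p = 0.124 with limma). Of 11 homing and residence genes, Cd44, an adhesion receptor of memory T cells that tumor cells also carry, fell, with 15071 to 28269 in CTRL tumors against 7942 to 12224 in D30 tumors (log2 fold change -1.08, limma, adjusted p = 0.0166). DESeq2 also called Cxcr3, a chemokine receptor of effector T and NK cells, lower, and its groups did not overlap, with 18.6 to 54.7 in CTRL against 0 to 13.7 in D30 tumors (log2 fold change -2.66, adjusted p = 0.0618 with limma). With 1 tumor left out in turn, the call of Il2ra was kept each time, and that of Cd44 was lost without N2 or N5. The call of Gzmm was lost without N2, N4, N5, N6, T2 or T7, with an adjusted p of up to 0.0834.

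No gene passed the limma test among 25 other NK receptors, 15 ligands of T and NK receptors and 10 interferon gamma response genes, and 6, 2 and 1 of them had an unadjusted p under 0.05. DESeq2 called Cd244a among the receptors, Ido1 among the response genes and none of the ligands. The Ly49 gene Klra4 and the NKG2 genes Klrc1 and Klrc2, named after their values were seen, were read far above the NK markers. The median level of Klra4 was 83.1 RPKM in CTRL and 70.0 RPKM in D30 tumors, against 0.0564 and 0.0210 RPKM for Klrb1c. In T4 the normalized count of Klra4 was 17659, where the other tumors had at most 5407, and Klrc1 and Klrc2 were highest in the same tumor, at 5197 and 4231. Klra genes are close copies of each other, so reads may have been shared among them.

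Markers of other cell types differed between the tumors as well. Macrophage genes were lower for 9 of 10, with Csf1r called (log2 fold change -1.06, limma, adjusted p = 0.0449), a call that was kept only when T2 or T4 was the tumor left out, and the summed level was 29912 to 63575 in CTRL against 13316 to 74782 in D30 tumors. All 7 dendritic cell genes and 7 of 9 B cell genes had a log2 fold change below 0, and none passed the limma test, where 2 dendritic cell genes lay lower at an unadjusted p under 0.05, as did 2 B cell genes, while 1 B cell gene lay higher. DESeq2 called 0 dendritic cell genes and 2 B cell genes, Cd22 lower and Pax5 higher. All 3 tested genes of lymph node stroma lay below 0, with a median log2 fold change of -2.62 and a summed level of 43.4 to 409.9 in CTRL against 21.98 to 260.02 in D30 tumors, and 2 had an unadjusted p under 0.05. All 5 fibroblast genes lay below 0 (median -0.85, 3 with an unadjusted p under 0.05), as did 4 of 5 plasma cell genes and 5 of 7 mast cell genes, and limma called no gene of these 4 lists while DESeq2 called Lum among the fibroblast genes. All 4 endothelial genes lay lower, with Cdh5 called (log2 fold change -1.45, limma, adjusted p = 0.0117). All 7 neutrophil genes lay higher, 4 with an unadjusted p under 0.05, and edgeR and DESeq2 each called Mmp8 where limma called none, with a summed level of 674 to 3189 in CTRL against 816 to 16435 in D30 tumors. The keratins and other epithelial genes summed to 193320 to 307920 in CTRL against 312240 to 423460 in D30 tumors. At an unadjusted p under 0.05, 5 of these 6 genes lay higher, and Epcam, named after its values were seen, lay lower, with 15.9 to 191 in CTRL against 0 to 62.5 in D30 tumors (log2 fold change -3.17, limma, adjusted p = 0.099). The part of these cell types in the values of the members, Cd4, Gata3 and Lef1 included, was not tested.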

How the data were processed

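RNA-seq of 10 orthotopic KPC K8484 tumors (5 CTRL, 5 D30) was used. The authors deposited 1 table of a normalized signal, that is, counts per gene divided by a size factor of each tumor. The submitters' processing notes name CASAVA, FastQC, Trim Galore, STAR 2.7.0e, DESeq2 and GRCm39, and the methods name a human reference. Libraries were strand-specific, and the study's list of software also names RSEM. The annotation release, the counting settings and whether reads were counted by strand are not given in the sources used here. Undoing the factor gave whole reads for 100.0% of the values above 0, to within 0.1 read, and depths of 29192261 to 42122304 reads, which limit the precision of the rare members.

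Columns with N were assigned to CTRL by their letter and those with T to D30 as the other group. The labels name the samples as replicates. No 2 tumors agreed within sampling noise (chi-square per degree of freedom of at least 28.0 within groups). Identifiers were matched without version to GENCODE M21 (GRCm38), which named 52083 of 55359 genes (94.1%), and exon lengths for RPKM came from it.

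limma 3.58.1 (R 4.3.3) with a mean-variance trend was run on log2(normalized count + 1) for the 24560 genes with a mean of at least 1, with Benjamini-Hochberg adjustment over all of them. Fold changes on this scale understate those of low genes. edgeR 4.0.16 (quasi-likelihood) and DESeq2 1.42.0 on recovered reads, other pseudocounts, filters and scalings, and leaving out tumors were alternatives. Scripts were tested on simulated data. For ratios and V genes, exact permutation tests (two-sided) were used, which cannot go below 0.00794 with 5 tumors a group.

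The members, the gene lists and the rules were chosen with earlier results of these data known. The text names all members, each called gene of the pathway and cell type lists (up to 4 a list) and the partner genes of the ratios, and says where a gene was named after its values were seen. The values of a gene that meets the rule are not reported here. Genes of these lists that limma did not call are named outside this rule, most of them because DESeq2 called them.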

Additional observations from a re-analysis of the deposited data

Results flagged for a closer look

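The values of the 39 members, the 7 ratios and the 2 V gene measures were searched in each group for a tumor far from the others by Dixon's test at the 95% level, which flags about 1 in 20 groups by chance. It flagged 12 of 96 groups of values, 7 of them in N1 and 4 in T4, and none in T5. N1 had the highest normalized count of its group for Cd8b1 (51.5, next 29.2), Cd2 (54.7, next 20.54), Lck (97.8, next 60.8), Themis (34.7, next 16.8), Nkg7 (76.8, next 40.2) and Klrk1 (32.6, next 12.8). N1 also had the lowest for Tcf7 (569, next 870). N2 had the lowest for Cd5 (13.7, next 24.8).

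T4 had the highest normalized count of the D30 tumors for Gzma (70.6, next 1.14), Gzmb (39.3, next 8.02), Prf1 (18.5, next 1.15) and Ifng (17.3, next 1.07). T4 is the tumor with 841 reads of Y-linked genes, and what part this has in the cytotoxic values was not tested.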

How the results depend on the processing

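No paired analysis was possible because the columns of the table carry no replicate numbers of the labels. The number of members called (2) was 0 with no filter on low values, 6 with DESeq2, 6 without T4 and T5, and 0 to 5 when 1 tumor was left out. It was 0 without N1, N2, N4, N5, N6 or T7, 1 without T1 or T5 and 5 without T4. With no filter the adjusted p was 0.0547 for Il7r and 0.0746 for Lef1. The number of pathway genes called (4) was 10 with DESeq2, 14 without T4 and T5 and 1 to 11 when 1 tumor was left out, with 1 without N2, 2 without N5 or N6 and 11 without T4. Leaving out T4 and T5 together was chosen after seeing the data. The number of members below 0 (35 of 38) was 29 of 31 with a minimum mean of 10 and with edgeR, 36 with library size alone and 32 to 35 with 1 tumor left out. The median of the members was -1.22 to -0.78 with 1 tumor left out, -0.76 with a pseudocount of 4 and -1.23 with library size alone, where the median of all genes was -0.27. Signs turned for some members. Ifng was -0.065 with a pseudocount of 0.5, -0.0019 with library size alone and -0.11 to 0.38 with 1 tumor left out, and Gzma was 1.10 with DESeq2. With 1 tumor left out, Lck ranged from -0.35 to 0.10, Trbc1 from -0.44 to 0.11, Il2rg from -0.34 to 0.17 and Klrk1 from -0.98 to 0.30. Without T4 and T5, Lck was 0.42 and Il2rg 0.41. Of the log2 ratios, Gzma to Cd3e was 0.33 with a pseudocount of 4 and -1.70 to 0.29 with 1 tumor left out, Ncr1 to Cd3e -0.035 to 0.49 and Cd8b1 to Cd8a -0.93 to 0.086. The difference in V gene RPM ran from -0.65 to 0.32, and that in V genes with a read from -8.90 to -6.35, with an adjusted p of up to 0.0317. The cause of these changes was not tested. Depth limits the members with few reads, such as Ncr1, Ifng and Klrb1c.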
